A study of Mus musculus with 32 samples.

Results

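The response of neonatal mouse oligodendrocyte progenitor cells (OPCs) to inhibitors of lysine acetyltransferases was measured by RNA sequencing in 10 of the 32 libraries of the series. All libraries labelled as neonatal OPCs (nOPC) with acetyltransferase inhibitors (KATi, 5 libraries) or with vehicle (DMSO, 5 libraries) were taken, and each carries a letter from A to E in its label. The cells were wild type C57BL/6, taken from the cortex at postnatal day 5 by selection for the O4 antigen, and were grown in medium with the mitogens PDGF-AA and bFGF. KATi cultures received 5 µM garcinol together with 0.2 µM NU-9056 for 48 h, and DMSO cultures received 0.02% dimethyl sulfoxide for 48 h. Both compounds were given together, so the response to one cannot be told apart from the response to the other. The labels state at least 3 biological replicates per condition and do not say if separate mice supplied the cultures. The p-values therefore refer to the variation among these 10 cultures, which may be technical. Adult OPCs from day 60, with 4 KATi and 4 DMSO libraries under the same treatments, serve as a comparison further below.

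Lysine acetyltransferases transfer acetyl groups to histone tails and other proteins, and histone acetylation marks active promoters and enhancers. Garcinol is a plant compound known to inhibit p300 and PCAF, the products of Ep300 and Kat2b, and NU-9056 is known as an inhibitor of TIP60, the product of Kat5. OPCs are the dividing glia that give rise to myelinating oligodendrocytes. They respond to PDGF-AA through the receptor encoded by Pdgfra, carry the NG2 proteoglycan encoded by Cspg4, and leave the cell cycle before they make myelin.

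Library totals ran from 26.2 to 38 M counts with DMSO and from 23.5 to 32.9 M counts with KATi, and levels are given as CPM, the count of a gene scaled to the total of its library. Mitochondrial transcripts took 1.96% to 3.43% and 1.69% to 2.99% of the counts. The markers of OPCs were high in every library: the summed level of 6 such genes was 7582 to 9644 CPM with DMSO and 7801 to 8328 CPM with KATi. Mature oligodendrocyte markers (5 genes) summed to 12.5 to 78 CPM and 9.69 to 41.3 CPM, astrocyte markers (5 genes) to 306 to 659 CPM and 290 to 509 CPM, and neuronal markers (5 genes) to 18.2 to 37.6 CPM and 14.5 to 30.8 CPM. Microglial markers (6 genes, C1qa at 0) summed to at most 1.11 CPM, and endothelial markers (4 genes) to at most 15 CPM. Pericyte and fibroblast markers (7 genes) summed to 4.86 to 6.6 CPM with DMSO and 7.44 to 11.6 CPM with KATi, of which Acta2 alone gave 3.59 to 4.97 CPM and 6.09 to 9.41 CPM. The median of Pdgfrb in the same list was 0.153 CPM with DMSO and 0.0357 CPM with KATi, and that of Col1a1 1.19 and 1.08 CPM. The median of Rgs5 went the other way, at 0.122 CPM with DMSO and 0.214 CPM with KATi. Ependymal markers (4 genes, Tmem212 at 0) summed to 31.4 to 50.8 CPM and 28.8 to 66 CPM. In these bulk cultures fewer cells of a type and less RNA per cell cannot be told apart.

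Libraries stood apart in 2 ways. Letters A and B differed from letters C to E under both treatments. Sox10, a transcription factor of the oligodendrocyte lineage, lay between 43.4 and 79 CPM in the 4 libraries of letters A and B and between 486 and 779 CPM in the 6 libraries of letters C to E. The KATi libraries of letters C and D also stood apart in transcript composition. The GC content and length of the transcripts accounted for 49.2% and 50.5% of their deviation from the gene means, against 0.7% to 32.9% in the other 8 libraries. Results are therefore given beside 2 further fits: one without KATi libraries C and D, and one with an offset that removes each library's trend with transcript GC and length. The fit without KATi libraries C and D keeps their DMSO counterparts, so that letters A and B are 2 of 3 KATi and 2 of 5 DMSO libraries, and genes that differ between the letters are unbalanced in it. The part of these libraries in the results was not tested beyond these fits.

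No gene passed the test for a difference between KATi and DMSO when the letters were not used as a block. With edgeR's quasi-likelihood test and Benjamini-Hochberg adjustment, 0 of 17093 genes tested (0%) were below an adjusted p of 0.05, and the smallest adjusted p was 0.354. There were 2176 genes (12.7%) at an unadjusted p below 0.05, 1140 higher with KATi (6.67%) and 1036 lower (6.06%). These are called nominal genes below, and the counts of them in gene lists are to be read against these shares. With the letter as a block, edgeR called 173 genes (1.01%), 95 of them higher. The labels do not say what the letters mark and the libraries did not meet the criterion for pairing, so calls below are without the block unless it is named. DESeq2 called 98 genes (0.573%), 49 in each direction (0.287% each). The levels of the 5 KATi libraries lay wholly above those of the 5 DMSO libraries for 173 genes (1.01%) and wholly below for 145 genes (0.848%). KATi exceeded DMSO in every letter for 1630 genes (9.54%), and the reverse held for 1556 genes (9.1%). Across all genes tested the log2 fold change had a median of -0.01. In simulated counts with the same library sizes, the test recovered 66% of 2-fold and 22% of 1.5-fold differences. Each gene was drawn on its own there, without a difference between letters or a trend with transcript GC or length. The shares recovered therefore need not hold for the real libraries.

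The nominal count rested in part on single libraries. It was 1178 without KATi library C, 1260 without DMSO library C, 1419 without DMSO library A and 3688 without KATi library B. It was 857 of 17660 genes (4.85%) without KATi libraries C and D, and 1513 (8.85%) with the GC and length offsets. Within letters C to E alone 3975 genes (23%) were nominal, and within letters A and B alone 141 (0.821%). The fit of letters A and B has fewer libraries per group, so these counts do not compare the response between the letters. No gene was called with edgeR in any of these fits, none of which used the block.

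The direction of the difference followed transcript composition across genes. Among 13477 protein-coding genes, the log2 fold change had a Spearman correlation across genes of 0.47 with transcript GC, -0.44 with transcript length and -0.35 with the genomic span of the gene. The genes share the same 10 libraries and are not independent. The median transcript GC was 54.7% in 1004 nominal protein-coding genes that were higher with KATi, 44% in 867 that were lower, and 50.2% in all. Median transcript length was 2008, 5164 and 3259 bases in the same order. Genes under 45% GC had a median log2 fold change of -0.21, and this was -0.05 without KATi libraries C and D and 0.01 with the offsets. Genes at 55% GC or more had medians of 0.11, 0.05 and 0.00. Within letters A and B alone the medians were -0.10 under 45% GC and 0.09 at 55% or more. Within letters C to E they were -0.29 and 0.13. The trend was thus also present in letters A and B, and the fit without KATi libraries C and D is unbalanced in its letters.

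**Figure D1:**
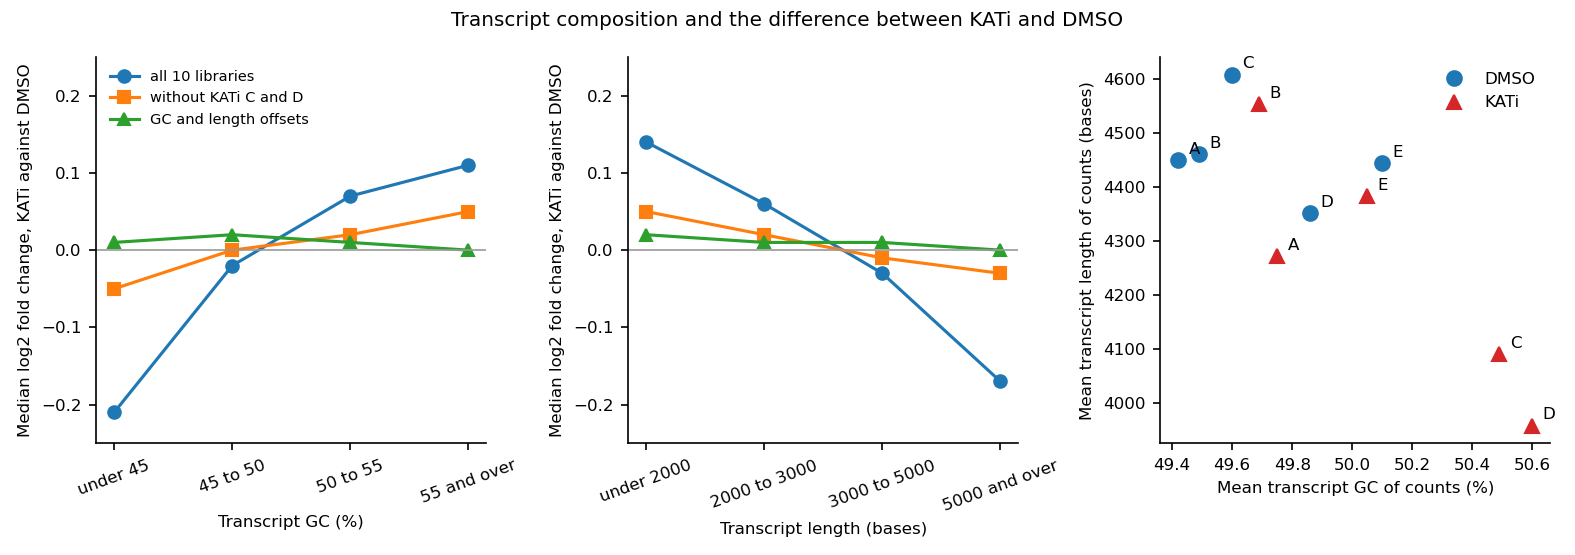
Median log2 fold change of KATi against DMSO for protein-coding genes in 4 classes of transcript GC (left) and length (centre), with all 10 libraries, without KATi libraries C and D, and with GC and length offsets, and each library's count-weighted mean transcript GC and length (right, letters beside the points). The slope with GC runs from -0.21 to 0.11 with all libraries and from -0.05 to 0.05 without KATi libraries C and D, which sit at the highest GC and shortest length.

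To show what these classes look like as sequence, 60 bases of coding sequence are given for the 2 highest-GC genes among the 10 leading genes that were higher with KATi and the 2 lowest-GC genes among the 10 that were lower. Each stretch is the window whose GC is closest to that of the whole coding sequence, from the longest protein-coding transcript in GENCODE M21 (GRCm38), 5′ to 3′, with G and C in capitals.
Lypla2 (higher, chromosome 4, 135968224 to 135972626, minus strand, coding bases 31 to 90): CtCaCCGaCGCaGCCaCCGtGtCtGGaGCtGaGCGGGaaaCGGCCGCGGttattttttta
Crip2 (higher, chromosome 12, 113140236 to 113145506, plus strand, coding bases 70 to 129): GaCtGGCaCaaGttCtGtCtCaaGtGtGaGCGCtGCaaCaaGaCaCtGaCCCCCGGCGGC
Dpp10 (lower, chromosome 1, 123321471 to 124045559, minus strand, coding bases 133 to 192): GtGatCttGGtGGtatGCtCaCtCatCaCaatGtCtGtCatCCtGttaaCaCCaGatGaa
Rab9b (lower, chromosome X, 136858147 to 136868755, minus strand, coding bases 1 to 60): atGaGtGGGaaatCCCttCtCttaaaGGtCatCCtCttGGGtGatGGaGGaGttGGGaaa
The windows hold 35 and 36 G or C bases of 60 for the genes that were higher, and 26 and 28 for those that were lower. Whole transcripts were 61.4% and 61.1% GC at 1626 and 1439 bases for Lypla2 and Crip2, and 39.7% and 41.3% GC at 15297 and 3980 bases for Dpp10 and Rab9b.

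The targets of the inhibitors were expressed, and their transcripts were not called as different between treatments. Kat5, which encodes TIP60 (chromosome 19, 5603014 to 5610237, minus strand), stood at 54.8, 48, 47, 58.7 and 53 CPM with DMSO in letters A to E and at 56.5, 48.7, 59.5, 66.6 and 50.3 CPM with KATi. The ranges overlapped, and the log2 fold change was 0.08 ± 0.09 (SE), or -0.05 with the GC and length offsets. Ep300 (chromosome 15, 81585351 to 81652077, plus strand) stood at 179, 154, 201, 167 and 184 CPM with DMSO and at 137, 169, 133, 102 and 170 CPM with KATi. KATi letter D was lowest and letters B and E lay within the DMSO range. The log2 fold change was -0.34 ± 0.15, or -0.15 without KATi libraries C and D and -0.20 with the offsets. Crebbp, which encodes the p300 paralogue CBP, differed by -0.22 ± 0.13 on the log2 scale, Kat2b by -0.17 ± 0.10 and Kat2a, which encodes the related enzyme GCN5, by 0.21 ± 0.08. Ep300 was nominally lower and Kat2a nominally higher. With the offsets only Ep300 stayed nominal, and without KATi libraries C and D neither did. None of these 5 genes was called, with edgeR adjusted p-values between 0.386 and 0.680.

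Of 20 acetyltransferase genes, 1 was nominally higher (6.67% of all genes) and 4 nominally lower (6.06% of all genes). The median log2 fold change was -0.18. That median was -0.03 without KATi libraries C and D and -0.05 with the offsets. Kat6b had the smallest p of this list, with a log2 fold change of -0.35 ± 0.12, or -0.19 without KATi libraries C and D. The 17 subunits of the TIP60 (NuA4) complex had a median of -0.01 with 1 nominal gene higher and 2 lower, and Mbtd1, a chromatin reader of that complex, differed by -0.47 ± 0.15 (-0.25 without KATi libraries C and D, -0.14 with the offsets). The 34 partners of other acetyltransferase complexes had a median of -0.04 (0 higher, 3 lower), with Msl2 at -0.35 ± 0.14 (-0.17 and -0.07 in the same fits). The 18 deacetylases had a median of 0.01 with none nominal, and Sirt1, which encodes a NAD-dependent deacetylase, was at -0.41 ± 0.20 (-0.13 and -0.26). The 25 bromodomain readers, proteins that bind acetylated lysine, had a median of -0.06 (0 higher, 3 lower), with Atad2b at -0.64 ± 0.22 (-0.33 and -0.39). The 20 histone methyltransferases had a median of -0.11 (2 higher, 1 lower), with Kmt5b, an H4K20 methyltransferase, at -0.35 ± 0.15 (-0.13 and -0.22). Among 10 replication-independent histone genes 2 were nominally higher and the median was 0.10, and H2afx, which encodes the H2AX variant, was at 0.35 ± 0.11 (0.25 and 0.17). Without KATi libraries C and D the medians of these last 6 lists lay between -0.01 and 0.04.

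The genes with the smallest p that were lower with KATi were led by Unc5c, which encodes a receptor for the guidance cue netrin-1 (chromosome 3, 141465216 to 141834924, plus strand). It stood at 54.7, 47.8, 73.9, 69.3 and 60.1 CPM with DMSO and at 37, 37.6, 32.2, 32.2 and 40.9 CPM with KATi in letters A to E. Every KATi library was below every DMSO library, and the log2 fold change was -0.78 ± 0.13 (fold 0.582, edgeR adjusted p = 0.354, DESeq2 adjusted p = 0.000711). It was -0.66 without KATi libraries C and D and -0.48 with the offsets. Dcc, the other main netrin receptor, chosen after its values were seen, stood at 92.8, 75.9, 119, 104 and 108 CPM with DMSO and at 59.9, 66.9, 40.3, 42 and 71.9 CPM with KATi. Its groups did not overlap either, with a log2 fold change of -0.84 ± 0.19 (-0.56 with the offsets).

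A pair of IgLON cell adhesion genes was also among the 10. Opcml stood at 70.8, 75, 73.5, 103 and 65.1 CPM with DMSO and at 49.2, 54.2, 36.5, 49.1 and 42.1 CPM with KATi (log2 fold change -0.76 ± 0.14). Lsamp stood at 231, 239, 243, 294 and 224 CPM with DMSO and at 187, 201, 157, 191 and 178 CPM with KATi (-0.45 ± 0.10). Neither gene's groups overlapped. With the offsets Opcml was at -0.48 and Lsamp at -0.13. Kit, which encodes the receptor tyrosine kinase for stem cell factor, was at 58.6, 37.5, 46.3, 46.7 and 48.1 CPM with DMSO and at 34.8, 28.6, 31.2, 34.6 and 31.9 CPM with KATi (-0.58 ± 0.11). The highest KATi library of Kit was below the lowest DMSO library, and the value was -0.49 with the offsets.

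The other 6 of the 10 were Dpp10, which encodes a potassium channel accessory protein (-0.67 ± 0.12), Rab9b, an endosomal GTPase gene (-0.72 ± 0.15), Ints6l, related to an Integrator subunit (-0.72 ± 0.15), Mios, a regulator of mTORC1 (-0.44 ± 0.10), Cttnbp2, a cortactin-binding protein gene (-0.47 ± 0.10), and Pag1, an adaptor of Src family kinase signalling (-0.62 ± 0.13). The 10 were picked by smallest p in these same libraries, so the counts that follow are not independent support. All 10 were called by DESeq2 (adjusted p 0.000711 to 0.0145), which called 0.287% of all genes lower. In 8 of 10 the groups did not overlap (0.848% of all genes). Without KATi libraries C and D all 10 stayed nominal, at log2 fold changes of -0.66 to -0.35. With the offsets 8 of 10 were nominal, and Dpp10, at -0.04, and Lsamp, at -0.13, were not. Erbb4, a neuregulin receptor gene chosen after its values were seen, was at -1.06 ± 0.26.

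The genes with the smallest p that were higher with KATi included genes of the cytoskeleton. Acta2, which encodes smooth muscle actin (chromosome 19, 34241090 to 34255590, minus strand), stood at 4.97, 3.59, 3.67, 4.89 and 3.94 CPM with DMSO and at 8.47, 6.55, 7.5, 9.41 and 6.09 CPM with KATi. Every KATi library was above every DMSO library, with a log2 fold change of 0.83 ± 0.16 (fold 1.78, edgeR adjusted p = 0.354, DESeq2 adjusted p = 0.00112). It was 0.75 both without KATi libraries C and D and with the offsets. Acta2 is also a pericyte marker, and the pericyte and fibroblast list had 1 nominal gene higher and 1 lower among 6 measured, with a median of 0.09. Tubb6, a beta-tubulin gene (chromosome 18, 67390717 to 67402749, plus strand), stood at 72.9, 101, 88.3, 73.4 and 79.6 CPM with DMSO and at 109, 119, 162, 139 and 124 CPM with KATi (0.63 ± 0.12). Of other tubulin genes, chosen after their values were seen, Tubb4b was at 0.48 ± 0.10, Tubb5 at 0.37 ± 0.12 and Tuba1b at 0.50 ± 0.14, and for Tubb4b the groups did not overlap. Actins and tubulins have close copies in the genome, and the counting may have divided reads between them.

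Crip2, which encodes a LIM domain protein, stood at 56.4, 67.3, 64, 67 and 77.1 CPM with DMSO and at 74.7, 91.5, 108, 120 and 106 CPM with KATi (log2 fold change 0.57 ± 0.12). Letter A of KATi lay just below letter E of DMSO. Cgref1, which encodes a calcium-binding protein named for cell growth regulation, had the largest log2 fold change of the 10, at 0.87 ± 0.18, and 0.63 without KATi libraries C and D. Mitochondrial genes were Mrpl12, a mitochondrial ribosomal protein (0.41 ± 0.08), and Cox5a, a subunit of cytochrome c oxidase (0.39 ± 0.08). The others were Lypla2, a thioesterase gene (0.39 ± 0.08), Dcaf4, a ubiquitin ligase substrate receptor gene (0.41 ± 0.08), Ak1, adenylate kinase (0.50 ± 0.10), and Fam110a, a centrosomal protein gene (0.49 ± 0.10). These 10 too were picked by smallest p in the same libraries, so the counts that follow are not independent support. All 10 were called by DESeq2 (adjusted p 0.00112 to 0.0125), which called 0.287% of all genes higher. In 9 of 10 the groups did not overlap (1.01% of all genes). All 10 were nominal without KATi libraries C and D (0.32 to 0.75) and with the offsets (0.23 to 0.75). Lgals1, which encodes galectin-1 and was chosen after its values were seen, stood at 169, 232, 147, 144 and 154 CPM with DMSO and at 222, 369, 307, 342 and 247 CPM with KATi (0.79 ± 0.17). Dcxr, Mgmt and Fbxw9, which were chosen with earlier results of these data known, were at 0.79 ± 0.17, 0.67 ± 0.15 and 0.45 ± 0.11. Of the 20 leading genes, 8 overlap an annotated gene on the opposite strand, whose reads cannot be told apart here.

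**Figure D2:**
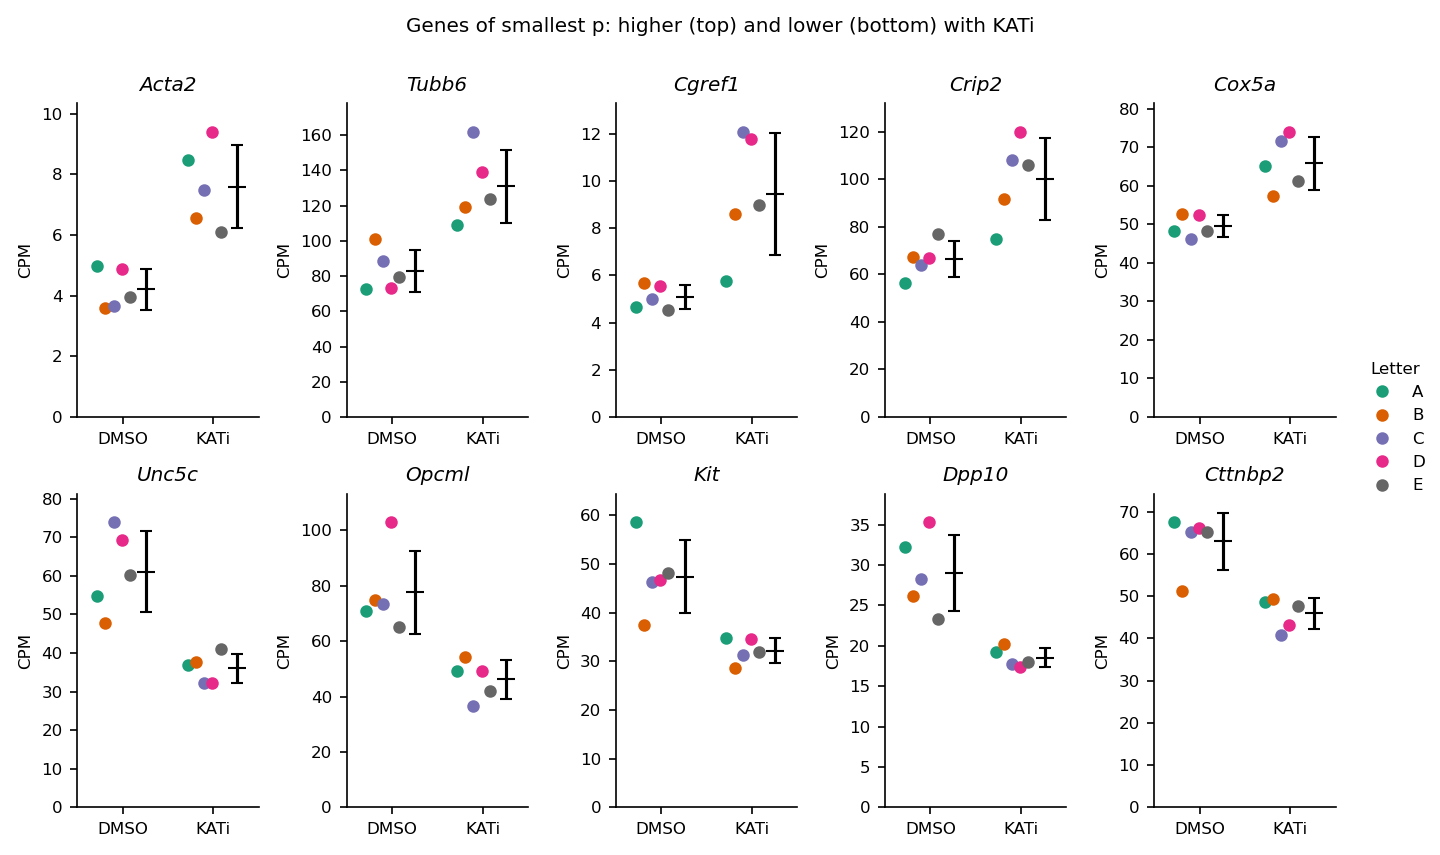
CPM in each library (points, coloured by letter) with the mean and SD of each group (black bars, n = 5) for 5 of the 10 leading genes in each direction. KATi libraries lie above all DMSO libraries for Acta2, Tubb6, Cgref1 and Cox5a, and below all of them for the 5 genes of the lower row.

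Most genes of the OPC stage were lower with KATi, although edgeR called none without the block, and 6 with it (1.01% of all genes). Of 25 genes in the list, 20 had a negative log2 fold change, 11 were nominally lower (6.06% of all genes) and 0 nominally higher. In all 5 letters 14 were lower (9.1% of all genes), and the median was -0.30 against -0.01 over all genes. The median was also -0.30 without KATi libraries C and D and was -0.22 with the offsets, with 8 and 5 nominal genes lower. The first of these fits is unbalanced in its letters, so its value is not a check on the size. The median was -0.18 within letters A and B and -0.36 within letters C to E, and that difference was not tested. Relative to the mean of the DMSO libraries, the list's median log2 level was -0.31, -0.36, -0.28, -0.24 and -0.28 in KATi libraries A to E. The DMSO libraries lay at 0.01, -0.21, -0.05, 0.20 and 0.00, so that the groups did not overlap. The list was chosen with earlier results of these data known, so its direction is not independent evidence.

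Tnr, which encodes the matrix glycoprotein tenascin-R (chromosome 1, 159523769 to 159931729, plus strand), stood at 309, 272, 403, 649 and 450 CPM with DMSO and at 192, 236, 141, 249 and 239 CPM with KATi. The groups did not overlap, and letter B had the smallest difference (log2 fold change -0.99 ± 0.23, fold 0.503, edgeR adjusted p = 0.361, DESeq2 adjusted p = 0.0112). Luzp2, a leucine zipper protein gene used as an OPC marker (chromosome 7, 54835498 to 55268885, plus strand), stood at 95.4, 52.8, 119, 154 and 83.5 CPM with DMSO and at 54.7, 44.4, 36.7, 58.3 and 50.7 CPM with KATi. DMSO letter B fell inside the KATi range, and the log2 fold change was -1.06 ± 0.23 (-0.62 with the offsets). Sox6, which with Sox5 encodes a repressor of oligodendrocyte maturation, stood at 508, 412, 610, 533 and 530 CPM with DMSO and at 382, 373, 341, 350 and 449 CPM with KATi. KATi letter E lay within the DMSO range, with a log2 fold change of -0.47 ± 0.12, and -0.23 with the offsets.

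Sox5 was at -0.50 ± 0.17, Lhfpl3 at -0.53 ± 0.17 and Pcdh15, a protocadherin gene chosen after its values were seen, at -0.65 ± 0.21. Each was lower with KATi in all 5 letters, and each was closer to 0 without KATi libraries C and D, at -0.27, -0.34 and -0.37. Cspg4, the NG2 gene, was at 722, 551, 742, 680 and 800 CPM with DMSO and at 600, 494, 575, 618 and 599 CPM with KATi (-0.30 ± 0.10). DMSO letter B was low and the ranges overlapped. Tnr, Luzp2 and Sox6 were the 3 genes of the list called by DESeq2, which called 0.287% of all genes lower.

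For receptors and factors that differed between letters, the spread between cultures exceeded the difference between treatments. Pdgfra stood at 1200, 599, 1754, 1617 and 1598 CPM with DMSO and at 820, 455, 1211, 1162 and 1253 CPM with KATi (log2 fold change -0.49 ± 0.30). Gpr17, which encodes a receptor of committed progenitors, stood at 396, 42, 843, 2350 and 1143 CPM with DMSO and at 156, 31.6, 552, 1318 and 458 CPM with KATi (-0.96 ± 0.92). Hes5, a Notch target, stood at 39.8, 3.27, 20.3, 32.8 and 30.8 CPM with DMSO and at 19.7, 2.01, 11.1, 18.3 and 13.6 CPM with KATi (-1.0 ± 0.59). In these 3 genes KATi was below DMSO in all 5 letters, as in 9.1% of all genes, while letter B was lowest in both groups. The edgeR adjusted p-values were 0.462, 0.627 and 0.455, and with the letter as a block they were 0.0234, 0.0234 and 0.0135. Sox10 was at 407 ± 318 CPM with DMSO and 393 ± 324 CPM with KATi (SD, n = 5 each, log2 fold change -0.09 ± 0.83). Olig2, a lineage factor with little spread, was at 1150 ± 107 and 1277 ± 87.3 CPM (n = 5 each, 0.13 ± 0.09). Without KATi libraries C and D, which belong to letters with high levels, the log2 fold changes of Gpr17, Sox10 and Pdgfra were -2.13, -1.01 and -0.67.

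Most differentiation and myelin genes had negative log2 fold changes. Of 17 measured genes 4 were nominally lower (6.06% of all genes) and 0 higher. Without the block edgeR called 0 of them, and with it 4 (1.01% of all genes). The median log2 fold change was -0.34, or -0.30 with the offsets. Relative to the DMSO mean, the list's median level with DMSO was -0.58 and -0.64 in letters A and B and 0.07, 0.60 and 0.16 in letters C to E. The median of -0.60 without KATi libraries C and D rests on that unbalanced set of letters. Ugt8a, which encodes the enzyme of galactocerebroside synthesis, was at 65.9, 45.7, 80.8, 71.1 and 62.3 CPM with DMSO and at 43.5, 30.9, 38.9, 35.5 and 53.9 CPM with KATi (-0.70 ± 0.17, or -0.30 with the offsets). Mbp, the myelin basic protein gene, was at 10.3 ± 6.27 and 8.25 ± 5.23 CPM (n = 5 each, -0.35 ± 0.51). Within either treatment Mbp was lowest in letters A and B.

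Most S phase genes were higher with KATi, although edgeR called none with or without the block. Of 49 genes of DNA replication, 44 had a positive log2 fold change and 23 were nominally higher (6.67% of all genes) with 0 lower, with a median of 0.29 against -0.01 over all genes. The median was 0.28 without KATi libraries C and D, with 10 nominal genes, and 0.29 with the offsets, with 18. It was 0.07 within letters A and B and 0.47 within letters C to E, and that difference was not tested. By library, the list's median log2 level relative to the DMSO mean was 0.41, 0.19, 0.56, 0.19 and 0.28 with KATi in letters A to E and 0.09, 0.34, 0.01, -0.41 and -0.12 with DMSO, so the groups overlapped through letter B. Only 2 of the 49 genes were higher in all 5 letters, a share below the 9.54% of all genes.

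Gins2, a subunit of the replicative helicase complex (chromosome 8, 120578633 to 120589304, minus strand), stood at 29, 32, 28.4, 24.7 and 26.9 CPM with DMSO and at 40.6, 31.5, 46.8, 40 and 36.8 CPM with KATi. KATi letter B alone lay within the DMSO range, and the log2 fold change was 0.45 ± 0.11 (edgeR adjusted p = 0.361, DESeq2 adjusted p = 0.0489). Ccne1, which encodes cyclin E1 of the entry into S phase, was at 0.46 ± 0.13, and Rrm2, a subunit of ribonucleotide reductase, at 0.37 ± 0.16, both chosen after their values were seen. Of 55 G2 and M phase genes 9 were nominally higher (6.67% of all genes) and 0 lower, with a median of 0.12. The median was -0.06 within letters A and B and 0.24 within letters C to E, and that difference was not tested. In all 5 letters 2 of these genes were higher (9.54% of all genes) and 2 lower (9.1% of all genes). Psrc1, a spindle protein gene that is also a p53 target, was at 0.54 ± 0.12. Mki67, the proliferation marker, was at 1508, 1499, 1061, 694 and 632 CPM with DMSO and at 1417, 1188, 521, 522 and 663 CPM with KATi (-0.34 ± 0.35). Its level followed the letters more than the treatment, and its log2 fold change was 0.02 without KATi libraries C and D.

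Targets of p53 and genes of cell cycle arrest included nominally higher genes of apoptosis and arrest. From this list edgeR called 0 without the block and 5 with it (1.01% of all genes). Of 35 genes 11 were nominally higher (6.67% of all genes) and 1 lower, 14 were higher in all 5 letters (9.54% of all genes), and the median was 0.15. Without KATi libraries C and D the median was 0.27 with 12 nominal genes higher, and with the offsets 0.20 with 12. This list too was chosen with earlier results known. Cdkn1a, which encodes the cyclin-dependent kinase inhibitor p21 (chromosome 17, 29090976 to 29100727, plus strand), stood at 223, 354, 228, 170 and 223 CPM with DMSO and at 304, 451, 436, 367 and 381 CPM with KATi. It was higher with KATi in every letter, and only DMSO letter B lay above the lowest KATi library (log2 fold change 0.67 ± 0.18, or 0.53 with the offsets). Phlda3, an inhibitor of Akt signalling chosen after its values were seen, stood at 64.9, 85.3, 73.5, 62.2 and 78 CPM with DMSO and at 87.6, 97.3, 115, 110 and 111 CPM with KATi (0.49 ± 0.11). Its groups did not overlap.

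Perp, a membrane protein gene of cell adhesion and apoptosis, stood at 0.994, 1.18, 1.04, 0.762 and 0.947 CPM with DMSO and at 1.23, 2.24, 2.43, 2.1 and 2.16 CPM with KATi, without overlap (1.02 ± 0.22, DESeq2 adjusted p = 0.0125). Gdf15, which encodes a stress-induced cytokine, was at 1.15 ± 0.34, Tnfrsf10b, a death receptor gene, at 0.70 ± 0.21 and Trp53 itself at 0.29 ± 0.10, all 3 chosen after their values were seen. Gdf15 and Tnfrsf10b were higher in all 5 letters and Trp53 in 4. With the offsets they were at 0.99, 0.69 and 0.15.

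**Figure D3:**
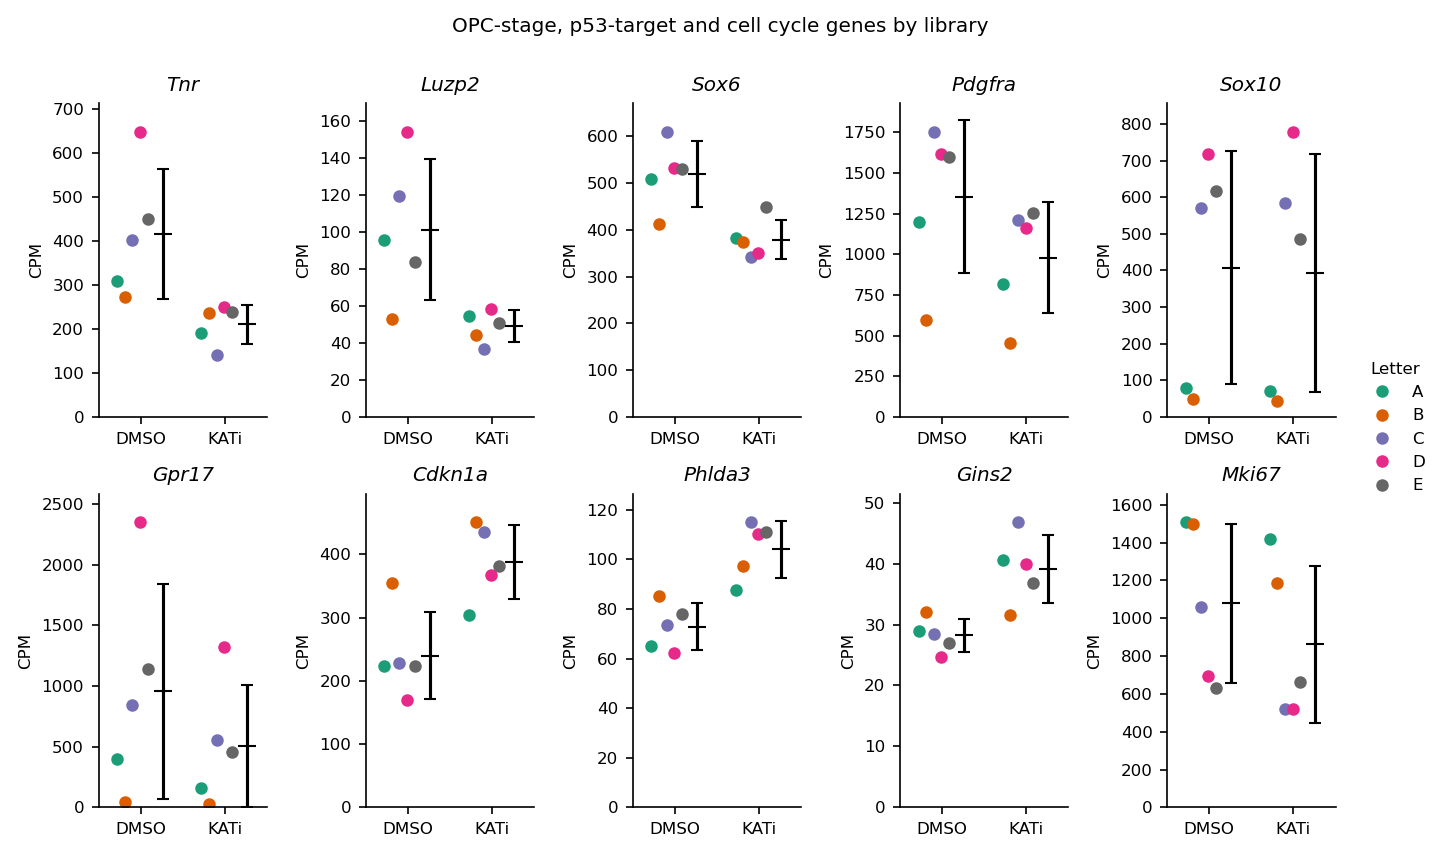
CPM in each library (points, coloured by letter) with the mean and SD of each group (black bars, n = 5) for OPC-stage genes and for p53-target and cell cycle genes. The groups do not overlap for Tnr and Phlda3, whereas letters A and B lie apart from letters C to E within each group for Sox10, Gpr17 and Mki67.

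Genes of growth and energy metabolism leaned higher, but for several lists the size depended on KATi libraries C and D. Of 37 MYC targets and ribosome biogenesis genes 14 were nominally higher (6.67% of all genes) and 0 lower. The median was 0.16, 0.18 without those libraries and 0.19 with the offsets. Mrto4, a ribosome assembly factor gene, was at 0.36 ± 0.09 with no overlap between groups (0.19 with the offsets), and Myc itself was at 157 ± 25.9 CPM with DMSO and 160 ± 30.2 CPM with KATi (n = 5 each, 0.01 ± 0.13). Of 66 oxidative phosphorylation genes 22 were nominally higher (6.67% of all genes) and 0 lower and 35 were higher in all 5 letters (9.54% of all genes), with a median of 0.25. That median was 0.07 without KATi libraries C and D, with 3 nominal genes, and 0.10 with the offsets, with 10. The 54 cytosolic ribosomal protein genes had a median of 0.16 (4 nominally higher), but 0.02 without those libraries and 0.03 with the offsets. The median transcript length was 870 bases in the oxidative phosphorylation list and 959 bases in the ribosomal list, against 3259 bases in protein-coding genes. Of the 26 glycolysis identifiers 7 were nominally higher (6.67% of all genes) and the median was 0.15, or 0.05 without those libraries. That fit is unbalanced in its letters. The glycolysis median was 0.14 within letters A and B and 0.13 within letters C to E, so it was not particular to the letters of those libraries. Aldoa, aldolase A, was at 0.39 ± 0.10 (0.24 without those libraries, 0.21 with the offsets). Cholesterol synthesis (26 genes, none nominal, Ebp at 0.21 ± 0.11 but 0.10 with the offsets) and fatty acid synthesis (24 genes, 1 nominally higher, Elovl1 at 0.31 ± 0.11 but 0.17 with the offsets) had medians of 0.01 and -0.03.

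**Figure D4:**
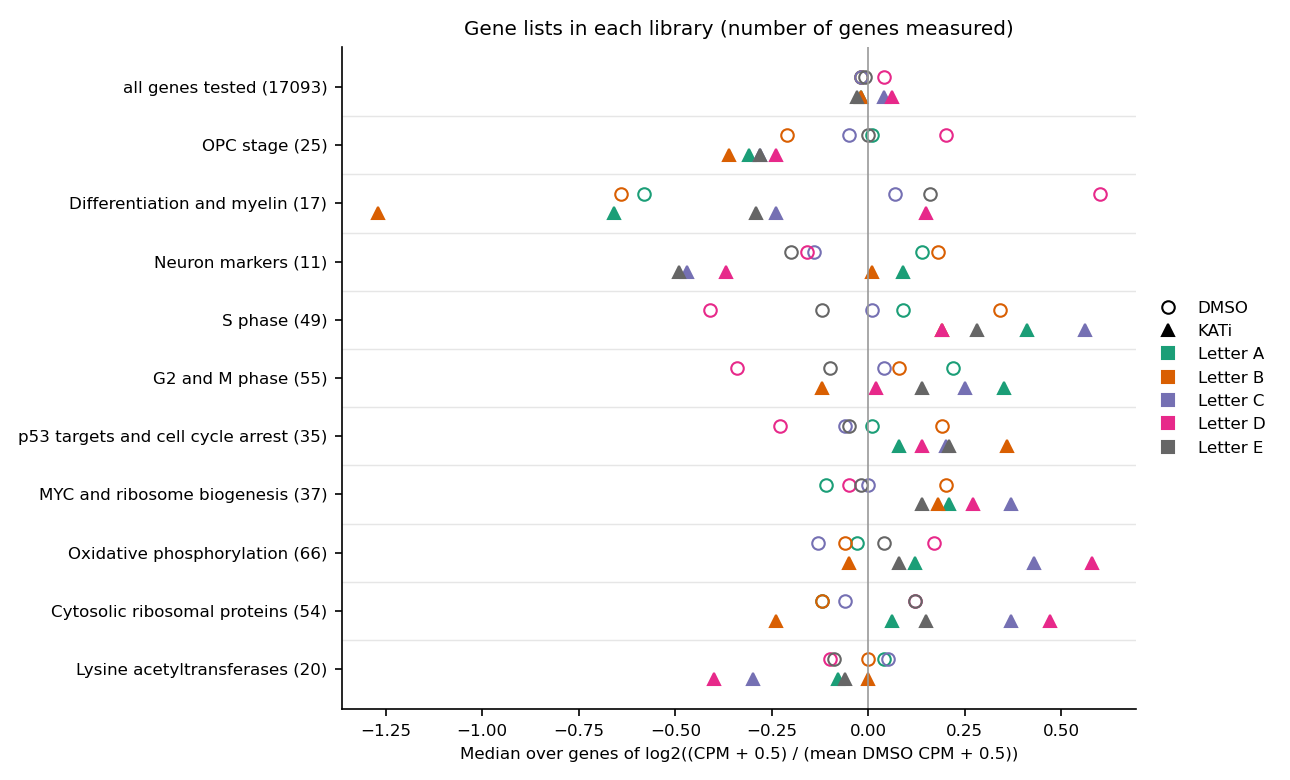
Median over the genes of each list of the log2 level in a library relative to the mean of the DMSO libraries (pseudocount 0.5 CPM), with DMSO as open circles, KATi as filled triangles and colours for letters. OPC-stage genes lie between -0.36 and -0.24 in all KATi libraries and between -0.21 and 0.20 in the DMSO libraries, and oxidative phosphorylation genes reach 0.43 and 0.58 in KATi libraries C and D only.

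Stress programmes showed small differences. NRF2 targets and glutathione genes had a median of 0.18 (35 genes, 5 nominally higher, 1 lower) and 0.07 without KATi libraries C and D, and Aldh3a2, an aldehyde dehydrogenase gene, was at -0.22 ± 0.08. Genes of the integrated stress and unfolded protein responses had a median of 0.11 (37 genes, 6 higher, 2 lower), with Sel1l, of the degradation of misfolded proteins, at -0.32 ± 0.09 (-0.19 with the offsets). Heat shock genes had a median of 0.17 (23 genes, 4 higher, 2 lower), with the constitutive chaperone gene Hspa8 at 0.30 ± 0.09. Metallothionein and metal genes (11 genes, 1 higher, Mt3 at 0.29 ± 0.12 but 0.08 with the offsets) and Ah receptor and xenobiotic genes (8 genes, 1 higher, 1 lower, Tiparp at -0.38 ± 0.13 but -0.07 with the offsets) had medians of 0.01 and -0.02. Autophagy and lysosome genes had a median of 0.08 (33 genes, 1 higher, 2 lower), with the cathepsin gene Ctsz at 0.30 ± 0.11 (0.12 with the offsets).

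Among signalling genes, the cytokine gene Lif, of the NF-kB and inflammation list (chromosome 11, 4257557 to 4272514, plus strand), stood at 2.91, 4.51, 2.84, 2 and 2.08 CPM with DMSO and at 4.47, 7.52, 8.14, 5.14 and 6.51 CPM with KATi. KATi letter A lay just below DMSO letter B and no other pair overlapped, and the log2 fold change was 1.12 ± 0.25, 1.11 without KATi libraries C and D and 1.08 with the offsets. The list of 15 genes had a median of 0.19 (3 nominally higher, 0 lower). Immediate-early genes had a median of 0.17 (25 genes, 3 higher, 0 lower), with Ier3 at 0.79 ± 0.22 (0.50 without KATi libraries C and D), and mitogen feedback genes a median of 0.16 (22 genes, 3 higher, 1 lower). Etv1, an ETS factor downstream of FGF signalling, was at -0.50 ± 0.13, but at -0.08 with the offsets. Genes of the Notch, BMP, Wnt and Shh pathways had a median of -0.17 (26 genes, 2 higher, 3 lower), and Ptch1, the Hedgehog receptor gene, was at 207, 159, 199, 215 and 211 CPM with DMSO and at 148, 164, 149, 125 and 161 CPM with KATi (-0.42 ± 0.11). Only DMSO letter B of Ptch1 lay within the KATi range. Cyclic AMP genes had a median of -0.02 (18 genes, 1 higher, 1 lower), with the phosphodiesterase gene Pde4d at -0.50 ± 0.12 and no overlap between groups. Interferon genes had a median of 0.13 (23 genes, 1 higher), with the antigen transporter gene Tap1 at 0.59 ± 0.14. Matrix and adhesion genes had a median of 0.11 (33 genes, 2 higher, 6 lower), and Tnr, given above, had the smallest p among them.

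Genes of other cell types were compared in the same way. Of 11 neuronal genes 2 were nominally lower, the median was -0.19, and Dcx, which encodes doublecortin of migrating neurons and is also found in early progenitors, stood at 86.8, 100, 186, 173 and 137 CPM with DMSO and at 56, 77.3, 56.8, 71.2 and 97.4 CPM with KATi (-0.95 ± 0.22, or -0.50 with the offsets). Of 19 astrocyte genes 2 were nominally lower, the median was -0.12, and the water channel gene Aqp4 was at -0.87 ± 0.25. No microglial (4 genes, P2ry12 at -0.47 ± 0.35 but -0.12 with the offsets), endothelial (5 genes, Egfl7 at 0.28 ± 0.29 but -0.04 without KATi libraries C and D) or ependymal gene (5 genes, Dynlrb2 at 0.44 ± 0.21 but 0.29 with the offsets) was nominal, with medians of -0.10, -0.05 and 0.32.

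The same inhibitors in 4 KATi and 4 DMSO libraries of adult OPCs from day 60 served to ask where the neonatal response differs. The difference between the ages in the response was called for 0 of 18545 genes (0%) with edgeR and for 0 with DESeq2, and 137 genes (0.739%) were at an unadjusted p below 0.05. For KATi against DMSO in adult cells, edgeR called 0 genes (0%), with 174 (0.938%) at an unadjusted p below 0.05. This contrast was taken in the same joint fit of the 10 neonatal and 8 adult libraries. Adult values and SEs below come from that joint fit, and neonatal ones from the fit of the 10 neonatal libraries. Values in neonatal and adult cells were, in this order, -0.99 ± 0.23 and -0.52 ± 0.24 on the log2 scale for Tnr, 0.67 ± 0.18 and 0.34 ± 0.22 for Cdkn1a, 0.63 ± 0.12 and 0.61 ± 0.23 for Tubb6, and -0.78 ± 0.13 and -0.23 ± 0.28 for Unc5c. Tnr, Tubb6 and Unc5c were picked by small p in the neonatal libraries, so their neonatal values may be overstated beside the adult ones. The unadjusted edgeR p of the difference between the ages was 0.16 for Tnr, 0.266 for Cdkn1a, 0.95 for Tubb6 and 0.165 for Unc5c. Medians of the OPC-stage list were -0.30 and -0.18, and those of the S phase list 0.29 and 0.27. No response particular to neonatal cells was detectable with this number of cultures.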

How the data were processed

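The deposited table holds whole-number counts of reads per gene for 56980 Ensembl identifiers, made by the authors and not normalized. CASAVA 1.8.2, Subread, featureCounts, DESeq2 and mm10 are named in the submitters' processing notes, without their roles, and the strand setting is not given in the sources used here. GENCODE M21 (GRCm38, the assembly of mm10) gave a symbol for 52125 identifiers, and those without one held 2.25% of the counts of the 10 libraries, 1.93% in a single identifier, which was kept. No pair of libraries in a group agreed within sampling noise (smallest chi-square per degree of freedom 18.28).

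The filter was filterByExpr with a minimum count of 10, which retained 17093 genes holding 99.9% of counts, and scaling used TMM factors. The 5 KATi and 5 DMSO libraries were compared with edgeR 4.0.16 (quasi-likelihood F test, R 4.3.3, Benjamini-Hochberg over all genes, called below 0.05) without a block, and DESeq2 1.42.0 was an alternative. The SE of a log2 fold change is its size divided by the square root of F. CPM values use raw library totals. With library totals of 23.5 M counts or more, counting error matters mainly for genes near 1 CPM. The script was tested on simulated counts (200 changed genes among 17093, 4 false calls of 92). Offsets were natural splines (4 degrees of freedom each) in GC and log2 length of the longest transcript, fitted to each library's deviation from the gene means. They were chosen after seeing the data, as were the fits by letter and without KATi libraries C and D.

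Named genes were the 10 of smallest p in each direction (none being called) whose average log2 CPM was 2 or more, with the same direction in all 5 letters, leaving out predicted, mitochondrial, ribosomal and pseudogenes, the gene of smallest p in each of 37 lists, and fixed genes. One gene that the rule names is left out here. The members and lists were chosen with earlier results of these data known. Alternatives were the scaling, DESeq2, the filter, the libraries in the fit, the letter block and leaving out each library.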

Additional observations from a re-analysis of the deposited data

Results flagged for a closer look

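In groups of 5 libraries, a library was taken to lie apart when its gap to the nearest other library exceeded 0.71 of the group's range (Dixon's 95% critical value). Over 88 named genes and both treatments this held for 13 of 176 groups, and chance flags about 1 in 20. In the DMSO group letter B was low for Cttnbp2 (51.1 CPM, others 65.1 to 67.5) and Ptch1 (159 CPM, others 199 to 215). It was high for Tnfrsf10b (28.4 CPM, others 15.2 to 18.9) and Lgals1 (232 CPM, others 144 to 169). DMSO letter D was high for Opcml (103 CPM, others 65.1 to 75) and Lsamp (294 CPM, others 224 to 243). DMSO letter A was high for Sox5 (121 CPM, others 88.9 to 96) and low for Gdf15 (0.879 CPM, others 1.97 to 2.41). In the KATi group letter A was low for Dcxr (26.7 CPM, others 45.3 to 52.4) and Perp (1.23 CPM, others 2.1 to 2.43). KATi letter C was high for Psrc1 (226 CPM, others 175 to 190) and Ccne1 (60.9 CPM, others 43.5 to 46.9), and letter E was high for Rab9b (4.89 CPM, others 3.36 to 3.79).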

How the results depend on the processing

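Without a block, edgeR called 0 genes under every alternative run, and DESeq2 called 98. The number of genes at an unadjusted p below 0.05 was 2176, ran from 1178 to 3688 when a library was left out, and was 857 without KATi libraries C and D, 141 in letters A and B, 3975 in letters C to E and 3347 with a term for letters A and B against the others. The letters did not pair the libraries by the criterion used, a correlation of deviations from the group means over 0.1 in every letter: it was over 0.1 in 4 of 5 letters (-0.0695 to 0.718, 12993 genes), and 6 of 10 libraries correlated best with their own letter. With the letter as a replicate block, edgeR called 173 genes, 95 of them higher, and 4354 were at an unadjusted p below 0.05, against 0 called without it. Among 88 named genes 28 were called, including Pdgfra, Gpr17, Hes5, Cdkn1a and Tnr, against 1.01% of all genes. Many of the named genes were picked by small p or after their values were seen. That count is therefore not independent support. The blocked count was 523 with the 15 DMSO, KATi and SUV420i libraries, 1310 with DESeq2, 2511 without a filter and 514 with GC and length offsets, and 0 to 1581 when a letter was left out. The SUV420i libraries are neonatal cultures that received 5 µM of the SUV420 inhibitor A-196 for 48 h. The difference between the ages was called for 0 genes in every alternative, the block included. The alternatives reuse the libraries in which many of the named genes were picked. Of 1935 gene values under alternatives 1921 kept their direction or were at 0.00 to 2 decimals. The others were Kat5 (-0.05 with offsets), Mki67 (0.02 without KATi libraries C and D), Egfl7 (-0.40 in letters A and B, -0.04 without KATi libraries C and D), Myc (-0.11 with offsets, -0.14 without KATi libraries C and D, and -0.09 to 0.09 when a library was left out) and Sox10 (-0.48 to 0.21 when a library was left out). The cause of these differences was not tested. Counting error matters mainly for genes near 1 CPM.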
